A study of Caenorhabditis elegans with 8 samples.

Results

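The genes described here are 10 genes of the molt and of the precuticle matrix of C. elegans, chosen by name: mlt-7, mlt-8, mlt-9, mlt-10, mlt-11, noah-1, noah-2, fbn-1, let-653 and lpr-3. All 10 were present among the 14541 genes of the deposited expression table. Total RNA from whole animals was sequenced in 4 libraries of the wild-type strain N2, grown for 48 h, and in 4 libraries of pals-17(*) mutants (strain ERT994, allele syb3980), grown for 72 h. Both strains grew at 20 °C on OP-50 bacteria (OP50-1 in the general methods of the study) from synchronized L1 larvae, each library pooling many animals. The pals-17(*) allele carries an early stop codon in the third exon of pals-17, a negative regulator of the intracellular pathogen response, and its carriers develop slowly and out of step with each other. Because of this, mutants were collected later than the wild type, and the collected animals were centred on L4 but spanned several stages. Genotype, growth time and stage cannot be told apart in these libraries. In whole animals fewer epidermal cells, less RNA per cell and more RNA from other tissues cannot be told apart either. The labels do not say whether replicates came from separate cultures, so p-values measure only the spread between these libraries.

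C. elegans replaces its cuticle at the end of each larval stage. Before each new cuticle is laid down, epidermal cells secrete a transient precuticle, an extracellular matrix of zona pellucida (ZP) domain proteins, lipocalins and leucine-rich repeat proteins that shapes the body surface and is later shed or removed. The old cuticle is then loosened and cast off with the help of proteases and protease inhibitors, and collagens of the new one are cross-linked by oxidases and peroxidases. Genes for these steps are known to be transcribed in waves, once in each larval stage, and to be quiet in adult animals.

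The libraries held 17871320 to 23378799 reads on listed genes, recovered from the steps of the deposited log2 values, and a single read was worth 0.0362 to 0.0681 CPM, the count unit relative to scaled library size. The 10 genes had between 369 and 21914 reads in any library. Relative to the recovered reads, the scaled library size was 0.793 to 0.822 in the wild type but 1.20 to 1.26 in the mutants, which lowers every mutant value compared with scaling by library totals. Transcripts of pals-17 itself stood at 14.3 to 19.3 CPM in wild-type animals and at 4.07 to 4.60 CPM in mutants (log2 fold change -1.86).

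Of the 10 genes, 9 were downregulated in pals-17(*) mutants and mlt-7 did not pass the test. Downregulation of these 9 genes ranged from -2.12 (fbn-1) to -2.70 (mlt-11) on the log2 scale, so that mutants kept 15.4 to 23.01% of the wild-type level. For each of the 9 genes every mutant library was below every wild-type library. The test was limma over all genes with Benjamini-Hochberg adjustment, and a gene passed at an adjusted p-value under 0.05. Among all 14541 genes, 41.2% were lower and 42.5% were higher in mutants by this test, while 7.48% were lower by a log2 fold change beyond -2, as the 9 genes were. With each library scaled to its recovered reads, 4 of the 10 genes were beyond -2 instead of 9, and 5 with quantile normalization, although the same 9 were lower under each scaling. Of the calls over all genes 50.8% were higher in mutants, and 72.1% with library totals. Every mutant library was below every wild-type library in 38.9% of all genes. Among the 3680 genes with a wild-type mean at or above that of the lowest of the 10 genes, 74.3% were lower and 14.4% were lower beyond -2. A set picked by its wild-type level alone leans towards genes that are lower in mutants. The median log2 fold change was -2.49 over the 10 genes and 0.0041 over all genes. The summed level of the 10 genes was 4605, 4626, 3389 and 3149 CPM in wild-type replicates 1 to 4 and 819, 638, 679 and 644 CPM in mutant replicates 1 to 4.

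**Figure D1:**
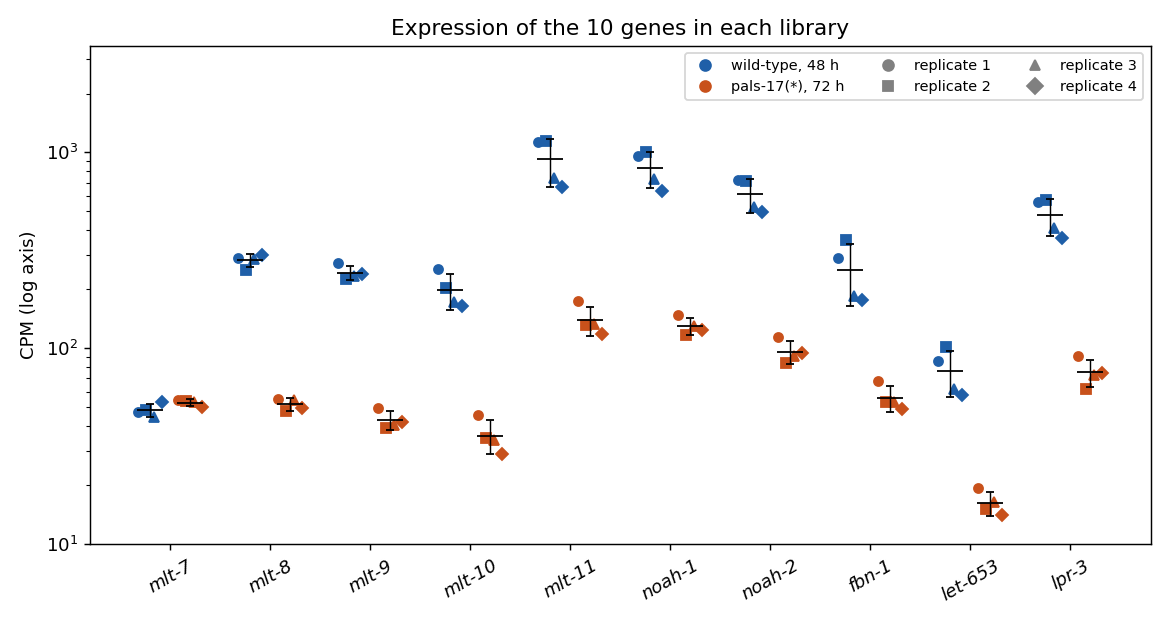
CPM of each of the 10 genes (log axis) in the 4 wild-type libraries (blue, 48 h) and the 4 pals-17(*) libraries (orange, 72 h), with the mean and SD of each strain in black and a marker shape for each replicate. The strains are apart for 9 genes and overlap for mlt-7, which lay between 44.5 and 54.3 CPM in all 8 libraries.

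NOAH-1 and NOAH-2 are ZP-domain proteins of the apical matrix, related to NompA of Drosophila, and are needed for the embryonic sheath and for the molt. The gene noah-1 (WBGene00016422) lies on chromosome I, 5874416 to 5878958, reverse strand (WBcel235), and noah-2 (WBGene00009926) on chromosome IV, 14091254 to 14096626, forward strand. Levels of noah-1 were 956, 1004, 731 and 635 CPM in wild-type replicates 1 to 4 and 148, 117, 130.1 and 124 CPM in mutant replicates 1 to 4. The lowest wild-type library was 4.29 times the highest mutant library. Means were 832 ± 177 and 129.8 ± 13.3 CPM (SD, n = 4 each), and limma estimated the log2 fold change at -2.66 (95% confidence interval -2.98 to -2.34, adjusted p = 7.68e-08). Levels of noah-2 were 721, 716, 524 and 494 CPM in wild-type animals and 114, 84.1, 91.4 and 94.6 CPM in mutants, in the same order of replicates. Again the wild-type libraries fell into a higher pair (replicates 1 and 2) and a lower pair (replicates 3 and 4), all of them above the mutants. For noah-2 limma also gave -2.66 on the log2 scale (SE 0.144, adjusted p = 7.41e-08).

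FBN-1 is a large fibrillin-like protein with a ZP domain that is needed in the embryonic epidermis and for shedding the old cuticle. The gene fbn-1 (WBGene00022816) spans chromosome III, 7625386 to 7641078, forward strand, with 9.554 kb of merged exons. It stood at 288, 358, 185 and 175 CPM in wild-type replicates 1 to 4 and at 67.8, 53.2, 53.4 and 48.7 CPM in mutant replicates 1 to 4. Of the 10 genes, fbn-1 had the widest spread in the wild type (SD 0.50 on the log2 scale) and, under the deposited scaling, the smallest decrease among the 9 downregulated genes. The log2 fold change was -2.12 (95% confidence interval -2.61 to -1.63, adjusted p = 7.45e-06 from limma), and -1.93 without wild-type replicate 2. The gene shares 45 exon bases (0.471% of its exons) with upp-1 on the opposite strand, which was higher in mutants (log2 fold change 1.63), and the sources used here do not say whether reads were counted by strand.

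LET-653 is a ZP-domain protein of the precuticle with mucin-like regions that keeps the narrow tube of the excretory duct open and lines the vulva during its development. The gene let-653 (WBGene00002827, chromosome IV, 11885613 to 11891082, forward strand) was expressed at 86.4, 101, 61.9 and 58.0 CPM in wild-type replicates 1 to 4. In mutant replicates 1 to 4 it was at 19.3, 15.1, 16.3 and 14.1 CPM. All mutant libraries lay under all wild-type libraries, with an estimate from limma of -2.22 on the log2 scale (SE 0.178, adjusted p = 1.18e-06). LPR-3 is a secreted lipocalin, a class of proteins that carry lipophilic molecules, and acts in the precuticle together with ZP-domain proteins. The gene lpr-3 (WBGene00012261, chromosome X, 11057401 to 11059793, forward strand) was at 556, 574, 411 and 364 CPM in wild-type replicates 1 to 4. In mutants the corresponding values were 91.3, 62.0, 72.9 and 74.3 CPM, all far below the wild type. Here limma estimated the change at -2.65 on the log2 scale (SE 0.163, adjusted p = 1.77e-07).

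The 5 mlt genes take their name from molting defects after their loss. MLT-11 is a large secreted protein with Kunitz-type protease inhibitor domains, and MLT-10 is the founding member of a family of secreted nematode proteins. The gene mlt-11 (WBGene00012186, chromosome V, 20667205 to 20678537, forward strand) had 1136, 1145, 740.0 and 668 CPM in wild-type replicates 1 to 4. It fell to 174, 131, 132 and 118 CPM in mutant replicates 1 to 4, a change of -2.70 on the log2 scale (SE 0.192, adjusted p = 4.82e-07 by limma). The 4 mutant libraries lay far below the wild-type ones, and the estimate was within its SE of those of noah-1, noah-2 and lpr-3. The gene mlt-10 (WBGene00015646, chromosome II, 546705 to 552032, forward strand) was at 253, 203, 172 and 164 CPM in wild-type animals and at 45.5, 34.8, 34.1 and 28.8 CPM in mutants. For mlt-10 limma estimated -2.47 on the log2 scale (SE 0.163, adjusted p = 2.87e-07), and replicate 1 was the highest library of each strain. On the same strand 109 of its exon bases (4.66%) are shared with lips-7, a less abundant gene (26.7 ± 6.07 CPM in wild-type animals, SD, n = 4), and how reads there were assigned is not given in the sources used here.

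The genes mlt-8 (WBGene00021095, chromosome II, 569210 to 572110, reverse strand) and mlt-9 (WBGene00008605, chromosome X, 15101786 to 15107797, reverse strand) were found as genes needed for the molt. Levels of mlt-8 were 289, 251, 285 and 299 CPM in wild-type replicates 1 to 4 and 55.1, 47.7, 54.6 and 49.5 CPM in mutant replicates 1 to 4. Levels of mlt-9 were 273, 226, 234.7 and 239 CPM in wild-type replicates and 49.7, 39.3, 40.3 and 41.8 CPM in mutant replicates. Both genes varied little within the wild type, and replicates 1 and 2 were not both above replicates 3 and 4. By limma mlt-8 changed by -2.44 (SE 0.0752, adjusted p = 2.75e-09) and mlt-9 by -2.51 on the log2 scale (SE 0.0892, adjusted p = 5.74e-09).

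MLT-7 is a secreted heme peroxidase that works with the dual oxidase BLI-3 in cross-linking the cuticle. The gene mlt-7 (WBGene00022743, chromosome II, 4393007 to 4404850, forward strand) stood at 47.3, 48.6, 44.5 and 53.3 CPM in wild-type replicates 1 to 4 and at 54.3, 53.8, 53.0 and 50.0 CPM in mutant replicates 1 to 4. The strains overlapped, since wild-type replicate 4 was above 2 of the mutant libraries. The log2 fold change of mlt-7 was 0.13 (95% confidence interval -0.03 to 0.28, adjusted p = 0.115 from limma), but it was 0.72 (adjusted p = 7.33e-06) when scaled by library totals, 0.27 (adjusted p = 0.00554) with quantile normalization and -0.15 (adjusted p = 0.071) with median centring. It also passed the test without wild-type replicate 4 (0.17, adjusted p = 0.0397). Scaling to totals moved the median of all genes up by 0.60 on the log2 scale, quantile normalization moved it by -0.12 and median centring by -0.28. A single scaling factor per library leaves ratios of genes within a library as they are, and the ratio of mlt-7 to each of the other 9 genes was 4.74 (fbn-1) to 7.10 (mlt-11) times higher in mutants than in wild-type animals, a comparison chosen after the values of mlt-7 were seen. Quantile normalization changes such ratios, and with it they were 3.92 (fbn-1) to 5.65 (let-653) times higher.

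**Figure D2:**
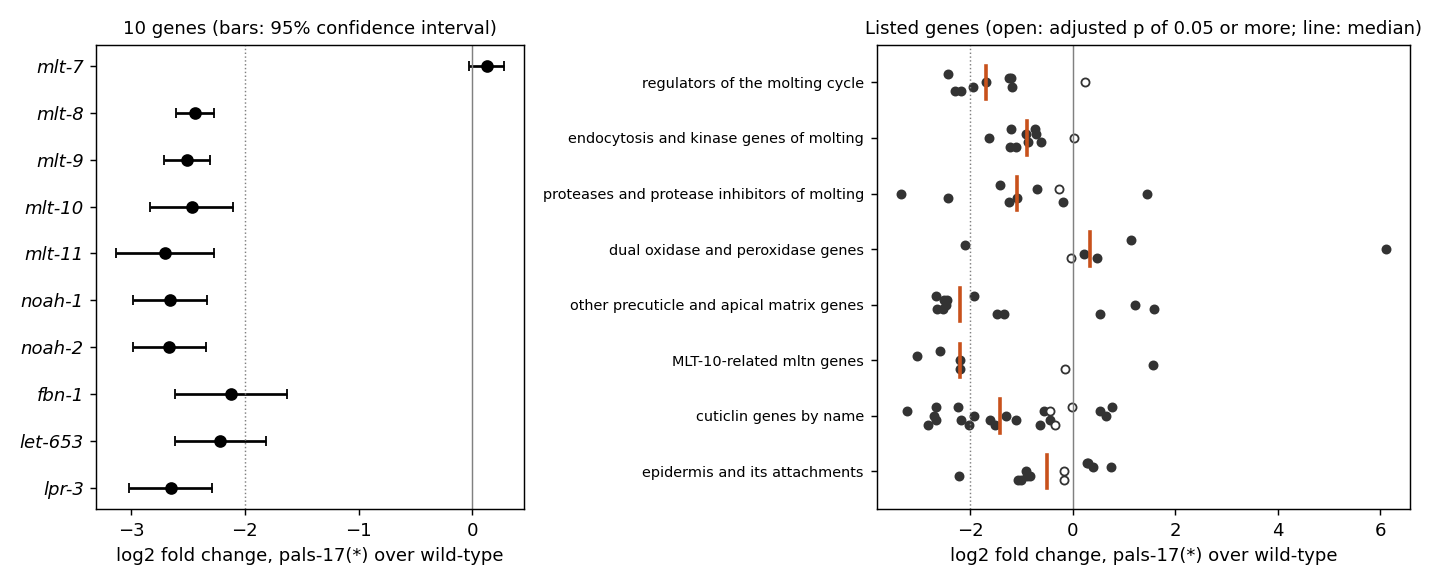
Log2 fold changes of pals-17(*) mutants over wild-type animals from limma, with 95% confidence intervals for the 10 genes (left) and 1 point per gene for the lists of related genes (right, filled where the adjusted p-value is under 0.05, line at the median). The dotted line marks a log2 fold change of -2, beyond which lie 9 of the 10 genes and 3 of the 9 listed regulators of the molting cycle with the deposited scaling, 4 and 0 with library totals, and 5 and 1 with quantile normalization. Over all genes, 7.48% passed and lay beyond this line with the deposited scaling.

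Levels of different genes were compared per kb of merged exons (CPM per kb). In wild-type animals mlt-8 (254 ± 18.9 CPM per kb), noah-2 (239 ± 47.5), lpr-3 (231 ± 50.4) and noah-1 (219 ± 46.7; SD, n = 4) led the order, and neighbours among these 4 did not differ beyond their spread. They were followed by mlt-9 (116 ± 9.83), mlt-11 (94.1 ± 25.9) and mlt-10 (84.6 ± 17.3), and then by let-653 (29.2 ± 7.77), fbn-1 (26.3 ± 9.16) and mlt-7 (19.3 ± 1.46). Within the middle group and within the last group neighbours differed by less than their spread as well, whereas the gaps between the 3 groups were wider. In mutants the first 4 places were unchanged, with mlt-8 at 46.8 ± 3.33, noah-2 at 37.5 ± 5.04, lpr-3 at 36.4 ± 5.85 and noah-1 at 34.2 ± 3.49 CPM per kb (SD, n = 4). The fifth place was taken by mlt-7 with 21.0 ± 0.774 CPM per kb, next to mlt-9 with 20.5 ± 2.26, which differed by less than the spread. Behind mlt-10 (15.3 ± 2.99) and mlt-11 (14.2 ± 2.46) came let-653 (6.15 ± 0.850) and fbn-1 (5.84 ± 0.869; SD, n = 4), each pair again within its spread.

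Within the wild type, the genes did not spread alike. Replicates 1 and 2 were both above replicates 3 and 4 in 7 of the 10 genes (mlt-10, mlt-11, noah-1, noah-2, fbn-1, let-653 and lpr-3), a pattern described after the values were seen and found in 22.1% of all genes. For let-653 the deviations from the wild-type mean were 0.21, 0.43, -0.27 and -0.37 on the log2 scale in replicates 1 to 4, and for lpr-3 they were 0.25, 0.30, -0.18 and -0.36. The range over the 4 wild-type libraries was 1.03 for fbn-1 and 0.55 to 0.80 for the other 6 of these genes on the log2 scale, against 0.25 for mlt-8, 0.27 for mlt-9 and 0.26 for mlt-7. In the mutants replicate 1 held the highest value of all 10 genes, as it did in 32.9% of all genes. The median SD over the 10 genes was 0.30 on the log2 scale in wild-type animals and 0.19 in mutants, compared with 0.098 and 0.12 over the 3680 genes of like or higher level. The split of replicates 1 and 2 above 3 and 4 was also seen in lists described below. It was found in 7 of 9 regulators, 8 of 12 other precuticle and apical matrix genes, 6 of 12 epidermis genes and 5 of 10 body wall muscle genes. Lower counts were 3 of 9 protease and inhibitor genes, 3 of 22 cuticlin genes and 0 of 10 intestine genes. The summed level of the muscle list had the split in mutants too (7361, 6527, 5508 and 4901 CPM in replicates 1 to 4). That of the 10 molting and precuticle genes did not. Named after its values were seen, unc-22 with 23.4 kb of exons had the split in both strains (306, 280, 121 and 103 CPM in mutants). The shorter pat-10 (0.979 kb) had it in neither strain. The part of replicate and exon length in the split was not tested. Markers of stage also differed between the wild-type libraries. The summed level of 20 germline and oocyte genes was 734, 556, 544 and 305 CPM in wild-type replicates 1 to 4, and 11 of the 20 had replicates 1 and 2 both above 3 and 4, the split of the 7 genes. Of 7 adult epidermis and yolk genes, 0 had this split, and their summed level was 3401, 2109, 3461 and 1705 CPM in wild-type replicates 1 to 4. Among them, the adult cuticle collagen col-19 stood at 90.6, 37.8, 67.001 and 13.5 CPM, with replicate 3 above replicate 2. The part of these markers in the spread was not tested.

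**Figure D3:**
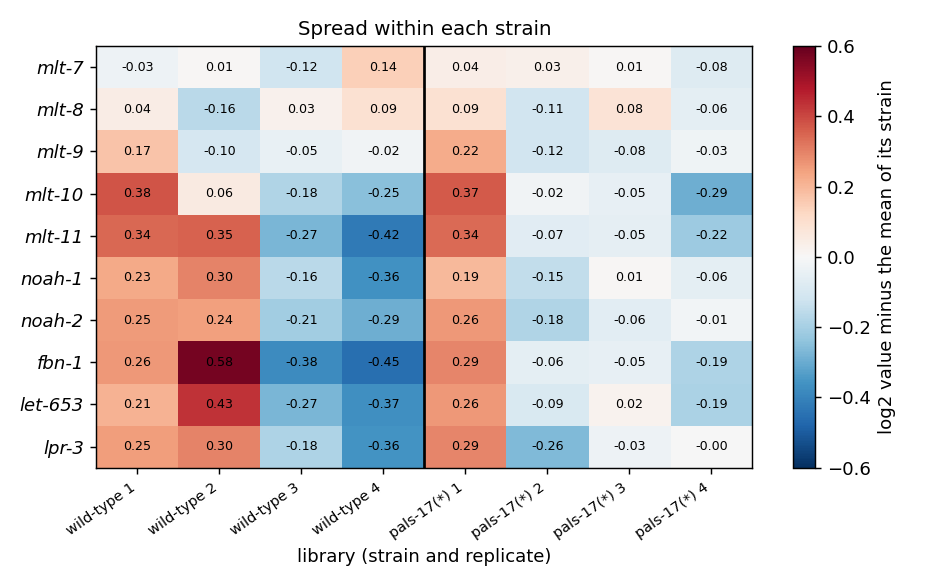
Deviation of each log2 value from the mean of its strain, for 10 genes (rows) in 4 wild-type and 4 pals-17(*) libraries (columns), with the values printed in the cells. Wild-type replicates 1 and 2 are above, and 3 and 4 below, the mean for the 7 lower rows, and mutant replicate 1 is above the mean in every row.

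The proportions of pairs of genes within a library were compared in 5 pairs. They were set by known roles, among genes chosen with earlier results of these data known. The exact 2-sided permutation test has a smallest possible p-value of 0.0286 (0.0476 after Benjamini-Hochberg adjustment over the 5 pairs, since it was reached by 3 of them). For the ZP-domain partners noah-1 and noah-2 the log2 ratio was 0.41, 0.49, 0.48 and 0.36 in wild-type replicates 1 to 4 and 0.37, 0.47, 0.51 and 0.39 in mutant replicates 1 to 4. The ranges overlapped almost fully, and the difference was 0.0029 (95% interval from the permutation test -0.12 to 0.15, exact p = 0.943). For fbn-1 over noah-1 the log2 ratio was -1.73, -1.49, -1.98 and -1.86 in wild-type libraries and -1.13, -1.14, -1.28 and -1.35 in mutants. Each mutant library was above each wild-type library, and the difference was 0.54 (interval 0.13 to 0.86, exact permutation p = 0.0286, adjusted 0.0476). Quantile normalization brought the log2 fold changes of this pair closer together, at -1.705 for fbn-1 and -1.92 for noah-1.

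The ratio of let-653 to lpr-3 was higher in mutants too, by 0.43 on the log2 scale (interval 0.11 to 0.69, exact permutation p = 0.0286, adjusted 0.0476), with -2.73 to -2.50 in wild-type libraries and -2.40 to -2.04 in mutants. Its direction turned with quantile normalization, where let-653 fell by more (-2.23) than lpr-3 (-2.09). For the inhibitor gene mlt-11 over nas-37, which encodes an astacin protease that helps to open the old cuticle, the log2 ratio was 2.45, 2.51, 2.04 and 1.94 in wild-type replicates and 1.06, 0.75, 0.72 and 0.57 in mutant replicates. This was the largest shift of the 5 pairs, with a difference of -1.46 (interval -1.94 to -0.88, exact permutation p = 0.0286, adjusted 0.0476). Per kb of exon, mlt-11 was at 94.1 ± 25.9 (SD, n = 4) and nas-37 at 74.98 CPM per kb in wild-type animals, a gap within the spread of mlt-11. In mutants nas-37 was the higher of the pair, at 31.6 CPM per kb against 14.2 ± 2.46 for mlt-11 (SD, n = 4). For mlt-7 over bli-3 the log2 ratio was -0.0019 to 0.40 in wild-type libraries and 0.15 to 0.43 in mutants, a difference of 0.16 (interval -0.25 to 0.43, exact permutation p = 0.2, adjusted 0.25).

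**Figure D4:**
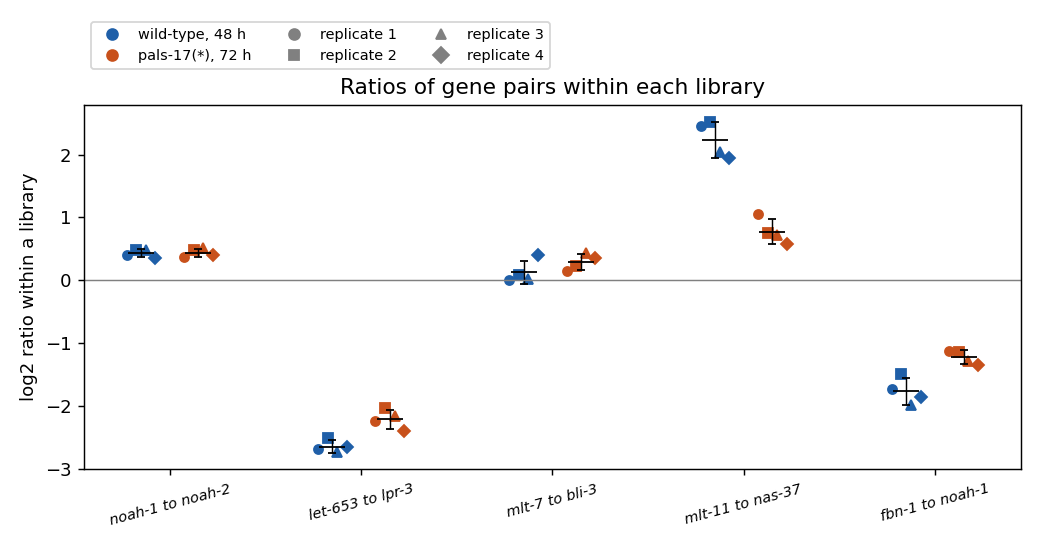
Log2 ratio of 5 pairs of genes within each of the 4 wild-type libraries (blue) and the 4 pals-17(*) libraries (orange), with the mean and SD of each strain in black and a marker shape for each replicate. The strains are apart for let-653 to lpr-3, mlt-11 to nas-37 and fbn-1 to noah-1 (differences of 0.43, -1.46 and 0.54), and overlap for the other pairs.

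As background for the lists from here on, 41.2% of all genes were lower and 42.5% higher in mutants, and 7.48% were lower beyond -2. Of the 3680 genes of like or higher wild-type level, 74.3% were lower and 14.4% lower beyond -2. Picked by their wild-type level alone, these 3680 genes lean towards lower in mutants. Most of the listed mltn and cuticlin genes lay below that level. Known regulators of the molting cycle were examined next, from a list of 10 genes of which 9 were in the table. Of these, 8 were lower in mutants by limma and 3 of them beyond -2, the median over the list being -1.68 on the log2 scale, and 8 were lower under each scaling. The number beyond -2 was 0 with library totals, 1 with quantile normalization (bed-3) and 4 with median centring. Expression of lin-42, the worm relative of the clock gene period, fell from 573, 572, 566.5 and 519.6 CPM in wild-type replicates 1 to 4 to 121, 100.3, 104 and 92.3 CPM in mutant replicates (log2 fold change -2.42, adjusted p = 4.78e-09 from limma). Other large decreases were those of myrf-1 (-2.30), a membrane-bound transcription factor that promotes the molt, and bed-3 (-2.17), a zinc finger factor. The Blimp-1 homolog blmp-1 fell by 1.94 and the Grainyhead homolog grh-1 by 1.68 on the log2 scale. Decreases of lin-29 (-1.23), nhr-25 (-1.20) and myrf-2 (-1.19) were smaller, with lin-29 known for the switch from larva to adult. The exception was nhr-23, the ROR-family nuclear receptor known to drive transcription of molting genes, with 58.5, 68.4, 40.8 and 39.4 CPM in wild-type replicates 1 to 4 and 66.7, 59.0, 54.1 and 57.5 CPM in mutant replicates 1 to 4. The wild-type values of nhr-23 surrounded those of the mutants, with a log2 fold change of 0.23 (95% confidence interval -0.15 to 0.61, adjusted p = 0.223 from limma), which was 0.83 (adjusted p = 0.00117) with library totals, 0.40 (adjusted p = 0.0355) with quantile normalization, -0.0451 with median centring and 0.38 (adjusted p = 0.034) without wild-type replicate 2.

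Of 12 other genes of the precuticle and apical matrix, 9 were lower and 3 were higher in mutants, the median being -2.19 on the log2 scale and between -2.46 and -1.59 under the other scalings. The leucine-rich repeat gene sym-1 fell from 430 ± 135 to 66.5 ± 7.31 CPM (log2 fold change -2.65), and the lipocalin genes lpr-5 (-2.46) and lpr-4 (-2.52) changed by similar amounts (SD, n = 4 per strain). Genes that rose were dyf-7 (1.59), which encodes a ZP-domain protein that anchors sensory dendrites, egg-6 (1.21), a leucine-rich repeat gene of the excretory duct, and lpr-2 (0.53). For lpr-2 the direction turned to -0.11 with quantile normalization (adjusted p = 0.494), and the call was lost with median centring. Of the MLT-10-related mltn genes 6 of 12 were in the table, of which 4 were lower and 1 was higher, with a median of -2.19. By the mean log2 value over all 8 libraries the leading genes were mltn-9 (-2.20), mltn-12 (-2.19) and mltn-1 (-0.15, adjusted p = 0.611 from limma). The other genes that fell were mltn-5 (-2.59) and mltn-13 (-3.04), named here after their values were seen. In the wild type mltn-5 (16.2 ± 2.85 CPM) was above mltn-1 (8.13 ± 2.80 CPM). The level of mltn-13 (9.60 ± 0.963 CPM; SD, n = 4 each) did not differ from that of mltn-1 beyond the spread. The gene that rose was mltn-10 (1.57), from 1.51 ± 0.422 to 4.42 ± 0.725 CPM (SD, n = 4).

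Cuticlins are non-collagen components of the cuticle, most of them with a ZP domain. Of 35 genes named cut or cutl, 22 were in the table, with 16 lower, 3 higher and a median of -1.41 on the log2 scale. With library totals 12 were lower and 4 higher, and with quantile normalization 19 and 0. Of those with the highest mean log2 values, cut-2 fell from 383 ± 62.4 to 53.9 ± 4.49 CPM (log2 fold change -2.82; SD, n = 4 per strain), and cutl-18 fell by 2.67 and cut-4 by 0.44 on the log2 scale, the last becoming 0.15 with library totals. The genes that rose, cutl-10 (0.77), cutl-23 (0.64) and cutl-16 (0.53), turned to -0.23, -0.21 and -0.0566 with quantile normalization. The rise of cutl-10 was lost without wild-type replicate 3 (adjusted p = 0.0561) or 4 (0.0548) and without mutant replicate 1 (0.074) or 2 (0.0739).

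Endocytosis of sterols and clearance of matrix at the epidermal surface are also needed for the molt. The counts below stand beside 41.2% of all genes lower in mutants, and 74.3% of the 3680 genes of like or higher level to the 10 molting and precuticle genes. Of 10 genes for endocytosis and for the NEKL kinases and their MLT partners, 9 were lower in mutants and 0 were beyond -2, the median being -0.89 on the log2 scale. With library totals 5 were lower and 1 was higher (median -0.29), and with quantile normalization 8 and 2. The megalin-like receptor gene lrp-1 fell by 1.21 and the clathrin heavy chain gene chc-1 by 0.62, the latter becoming 0.30 with quantile normalization. The adaptor gene dab-1 averaged 175 ± 5.38 CPM in wild-type libraries and 179 ± 14.5 CPM in the mutants (SD, n = 4; log2 fold change 0.0267, adjusted p = 0.723 from limma), but at 0.62 with library totals, 0.67 with quantile normalization and -0.25 with median centring. Among the protease and inhibitor genes, 9 of 10 were in the table, with 7 lower, 1 higher and a median of -1.08 (5 lower, 2 higher and -0.48 with library totals, 7, 1 and -0.80 with quantile normalization). The lysosomal cathepsin genes cpz-1 and cpl-1, which also act outside the molt, fell by 3.35 and 2.44, and nas-37 fell from 191 ± 16.4 to 80.4 ± 2.27 CPM (log2 fold change -1.24). The proprotein convertase gene bli-4 was at 227 ± 20.4 against 198 ± 14.4 CPM (-0.19, adjusted p = 0.0422), a call that was lost without any of 6 libraries (wild-type replicates 1 to 3 or mutant replicates 2 to 4) and turned to 0.40 with library totals and 0.52 with quantile normalization. The astacin gene nas-6 rose by 1.46, from 0.842 ± 0.104 to 2.41 ± 0.501 CPM (SD, n = 4), but did not pass with quantile normalization (0.31, adjusted p = 0.248 from limma).

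Among genes for cross-linking by oxidases and peroxidases, of which 6 of 7 were in the table, 4 were higher and 1 was lower in mutants, the median being 0.35 on the log2 scale. Over all genes 42.5% were higher and 41.2% lower. With library totals 5 were higher, bli-3 among them, and 1 was lower (median 0.94). With quantile normalization 2 were higher and 1 was lower (median -0.0185), and with median centring 2 and 2. The dual oxidase gene bli-3 averaged 44.3 ± 3.00 CPM in wild-type libraries against 43.4 ± 4.95 CPM (SD, n = 4; log2 fold change -0.0355, adjusted p = 0.726 from limma), but its fold change was 0.56 with library totals, 0.0544 with quantile normalization and -0.31 (adjusted p = 0.0105) with median centring. Peroxidase genes moved apart, with skpo-2 at -2.09 and skpo-3 at 1.14. The largest rise, named after its value was seen, was that of skpo-1 from 2.65 ± 1.87 to 151 ± 14.3 CPM (log2 fold change 6.12; SD, n = 4).

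Markers of tissues and stages changed between the strains along with these genes. Their counts stand beside 41.2% lower and 42.5% higher over all genes, and 74.3% lower among the 3680 genes of like or higher level. Of 12 genes of the epidermis, the tissue that secretes the precuticle, and of its attachments, 6 were lower, 4 were higher and 2 did not pass. Their median was -0.50 on the log2 scale but 0.094 with library totals, 0.014 with quantile normalization and -0.78 with median centring, and their summed level was 1925 to 2444 CPM in wild-type and 1484 to 2051 CPM in mutant libraries. With library totals 5 of the 12 were lower and 6 higher, with quantile normalization 4 and 5, and with median centring 8 and 1. Genes of this list are named after their values were seen. Those that fell were che-14 (-2.22), let-413 (-1.07), ajm-1 (-1.01), dlg-1 (-0.90), vab-19 (-0.88) and let-805 (-0.83), of which let-413, ajm-1 and dlg-1 encode proteins of epithelial junctions. The epidermal factor genes were at -0.16 (lin-26, adjusted p = 0.0582 from limma), 0.28 (elt-3) and 0.75 (elt-1). Also higher were mup-4 (0.41) and pat-12 (0.29), while vab-10 did not pass (-0.17, adjusted p = 0.305 from limma). None of the 12 genes was at 0 reads in any library. All 20 germline and oocyte genes were higher in mutants (19 with median centring), at 305 to 734 CPM in sum in wild-type libraries and 5205 to 6346 CPM in mutants. Of 7 adult epidermis and yolk genes, 6 were higher and vit-3 did not pass (0.23, adjusted p = 0.294 from limma), with 1705 to 3461 CPM in wild-type and 8805 to 11740 CPM in mutant libraries. The adult cuticle collagen gene col-19 was at 13.5 to 90.6 CPM in wild-type and 2408 to 2709 CPM in mutant libraries (log2 fold change 5.92). The other genes that passed encode yolk proteins, from 0.94 (vit-4) to 2.49 (vit-5). The 10 intestine genes were all lower (9 with quantile normalization), at 21037 to 23591 against 5054 to 6103 CPM, and 7 of 10 body wall muscle genes were lower, at 8003 to 10707 against 4901 to 7361 CPM, but 0 with library totals and 1 with quantile normalization, where 3 and 4 were higher. The part of these differences in the decrease of the molting genes was not tested.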

How the data were processed

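The authors mapped paired-end reads from a stranded mRNA kit to the C. elegans genome (WS235) with Rsubread, and the processing notes of the labels name featureCounts and limma. Genes under 1 CPM were removed and limma-voom was run in Galaxy. The deposited values are log2 CPM, 1 per gene and library, and the scaling method is not given in the sources used here. Among the 14542 entries 1 lacked a gene name and was dropped (0.00417% of reads). Reads were recovered from the steps of the values as reads plus 0.5 over a scaled library size (100% within 0.01 of a whole number).

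All 14541 genes were fitted with limma 3.58.1 in R 4.3.3, with an intensity trend, equal weights, no replicate block, 2-sided tests and Benjamini-Hochberg adjustment. The fit was tested on simulated data. Ratios were tested by exact permutation over 70 relabellings in Python 3.11.15. Alternatives were voom weights, no trend, robust empirical Bayes, the replicate block, 1 CPM added, a filter at 1 CPM in 4 libraries, 3 scalings, a log2 fold change of -1 and each library left out. Coordinates and exon lengths were read from the Ensembl 115 annotation of WBcel235, where 14531 identifiers were found. Named genes are the 10 genes, all listed regulators, both genes of each ratio, pals-17, the 3 most abundant genes of each other list and up to 3 that passed against its main direction. The genes and lists were chosen with earlier results of these data known. No genome or protein sequence was used here.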

Additional observations from a re-analysis of the deposited data

Results flagged for a closer look

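In 106 groups of 4 libraries (47 named genes, 5 ratios and the summed level, in each strain) a library lay far from the other 3 in 4 cases, where chance alone gives about 1 in 20. For nhr-25 the highest mutant library, replicate 1 with 6.60 CPM, was apart from the others at 4.89 to 5.03 CPM (gap over range 0.901). For lin-42 the lowest wild-type library, replicate 4 with 519.6 CPM, was below the others at 566.5 to 573 CPM (gap over range 0.876). For bli-4 mutant replicate 1 with 219.6 CPM was above the others at 189 to 193 CPM (gap over range 0.856). For mltn-10 wild-type replicate 4 with 0.885 CPM was below the others at 1.62 to 1.83 CPM (gap over range 0.832). None of the 10 molting and precuticle genes and none of the 5 ratios met this criterion.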

How the results depend on the processing

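The count of 9 lower genes among the 10 was found under all 17 alternatives to the fit. The count of genes beyond a log2 fold change of -2 was 9 under most of them, but 4 with library totals, 5 with quantile normalization and 8 to 9 with a library left out (8 without wild-type replicate 2). Each of the 9 genes kept its direction and an adjusted p-value under 0.05, with log2 fold changes from -2.98 to -1.52 over all genes and alternatives. The replicate block gave 9 and 9. Taken across all genes, same-numbered libraries of the strains did not deviate together (correlations of -0.0167 to 0.0731), so the numbers were not taken as pairs. For the 9 lower genes, however, the replicate block lowered the SE, from 0.163 to 0.0582 for mlt-10 and from 0.144 to 0.118 for noah-1. For mlt-7 the SE rose from 0.0691 to 0.0744. Over all genes, 5994 were lower and 6180 higher, with library totals 3390 lower and 8742 higher (72.1% of calls, against 50.8%), and with median centring 41.9% of calls were higher. Those lower beyond -2 numbered 1087, and 536 with library totals.

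The ratio of noah-1 to noah-2 differed by -0.000387 with 1 CPM added. The ratio of let-653 to lpr-3 turned direction with quantile normalization, where let-653 was at -2.23 and lpr-3 at -2.09. With a library left out the ratio differences ranged from -0.0212 to 0.0249 for noah-1 to noah-2, 0.378 to 0.497 for let-653 to lpr-3, 0.113 to 0.252 for mlt-7 to bli-3, -1.56 to -1.37 for mlt-11 to nas-37 and 0.467 to 0.633 for fbn-1 to noah-1. With 3 libraries in a strain the smallest exact p-value is 0.0571, and as 4 pairs 0.125, so these settings could not pass a threshold.

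With a library left out bli-3 ranged from -0.0968 to 0.0111 (above 0 without mutant replicate 3 or 4), dab-1 from -0.0101 (without mutant replicate 4) to 0.0842 and mltn-1 from -0.346 to 0.0113 (without wild-type replicate 1). With library totals mltn-1 was at 0.45, bli-3 at 0.56, bli-4 at 0.40 and cut-4 at 0.15. With quantile normalization bli-3 was at 0.0544, bli-4 at 0.52, chc-1 at 0.30, lpr-2 at -0.11, cutl-10 at -0.23, cutl-16 at -0.0566 and cutl-23 at -0.21. With median centring mlt-7 was at -0.15, nhr-23 at -0.0451 and dab-1 at -0.25. The cause was not tested.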
